A study of Mus musculus with 12 samples.

Results

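The genes described here encode the PIWI proteins of the mouse and their partners in the piRNA pathway. They were chosen by name, by a rule that holds no measured value, but with earlier results of these data known. The 10 genes are Piwil1, Piwil2, Piwil4, Ddx4, Mov10l1, Tdrd9, Tdrd1, Mael, Asz1 and Exd1, out of 24254 genes in the deposited table. RNA-seq had been carried out on fully grown oocytes at the germinal vesicle stage, and each library was a pool of 80 oocytes. The mice carried 1 of 3 states of Marf1, a gene for an oocyte RNase needed for female meiosis and for the control of retrotransposons: the D272 mutant (D272Mut), the gene-trap mutant (GTMut) or the wild type (WT). Each group had 4 libraries, and all mice were C57BL/6, 3 weeks old and primed with 5 IU of PMSG, a gonadotropin that stimulates follicle growth, 46 h before collection. The sources used here do not say whether the libraries of a group came from separate mice, so p-values reflect library-to-library spread that may be technical. They also do not give the zygosity of the alleles or the number of mouse lines, and the protocols name both oocytes and whole ovaries as the lysed material.

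Marf1 itself stood at 53.1 ± 1.02 FPKM (a fragment count divided by transcript length and by library size) in D272Mut, 1.43 ± 0.130 in GTMut and 25.8 ± 0.625 in WT (SD, n = 4 each), with no overlap between groups. The 12 oocyte markers examined were all detected, with summed levels of 10857 to 11116 FPKM in D272Mut, 11134 to 11653 in GTMut and 13410 to 13542 in WT. The 14 markers of granulosa and cumulus cells summed to 142 to 144 FPKM in D272Mut, 147 to 161 in GTMut and 44.7 to 49.6 in WT. Most of that sum came from Nr5a2, at 118 FPKM in D272Mut, 134 in GTMut and 26.5 in WT, while Foxl2, which defines granulosa cells, lay at 0.195, 0.273 and 0.0688 FPKM in the same order. Of the 8 granulosa markers that passed the filter, Nr5a2, Kitl and Inhba rose in both mutants against WT. Cyp19a1 and Fshr fell in both, and Amh fell in GTMut alone by the threshold. Inhba passed the filter only through the mutants and Fshr only through WT, which favoured their calls. Cyp19a1 was at 6.53 FPKM in D272Mut, 4.90 in GTMut and 11.7 in WT, Fshr at 0.2996, 0.179 and 1.26, and Kitl at 11.6, 11.7 and 2.63 in the same order. The 12 markers of other ovarian and blood cells summed to 14.9 to 17.5 FPKM in D272Mut, 14.8 to 15.9 in GTMut and 23.1 to 25.5 in WT. The part of other cell types in the results below was not tested. FPKM tables hold no totals, so the absolute depth is unknown. From the step that 1 fragment makes in low genes, the relative depth spanned 0.444 to 0.837 in D272Mut, 0.555 to 1 in GTMut and 0.613 to 0.944 in WT, and these ranges overlap.

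piRNAs are small RNAs of the germline that guide PIWI proteins, a branch of the Argonaute family, to transposon transcripts. Long precursors are delivered by the helicase MOV10L1, processed at the surface of mitochondria and in the perinuclear granules called nuage, and bound by PIWI proteins whose methylated arginines are held by Tudor domain proteins. In the mouse the pathway is best known from the male germline, where loss of most of these genes causes sterility. Oocytes carry piRNAs as well, along with endogenous small interfering RNAs that also act on transposons.

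The region just before a gene's start site is where its transcription is set, so the promoters of the genes were read for letters they share. Promoter windows of 300 bases, from 250 before to 50 after each annotated start, were taken from RefSeq (build GRCm38.p6). By symbol, 9 of the 10 genes were matched, and Piwil2 had no entry. The 6-letter E-box CACGTG, which reads the same on both strands and is the core site of basic helix-loop-helix factors, stood in the windows of 6 of these 9 genes: Ddx4, Piwil1, Tdrd1, Mael, Tdrd9 and Mov10l1. It occurred in a window of 8.09% of the 27025 genes with a promoter entry. Of the 12388 genes with at least 1 window holding 10 or more CG dinucleotides, 11.8% had it. That limit of 10 was the lowest count among the members' own windows with an E-box, so those members lie within it by construction. The windows of 3 genes whose levels are taken up below are shown whole, 5′ to 3′ on the strand of the gene, with the E-box in capitals. They lie at chr13:112652261-112652560 on the minus strand for Ddx4, at chr5:128735996-128736295 on the plus strand for Piwil1 and at chr19:56825959-56826258 on the plus strand for Tdrd1.
Ddx4: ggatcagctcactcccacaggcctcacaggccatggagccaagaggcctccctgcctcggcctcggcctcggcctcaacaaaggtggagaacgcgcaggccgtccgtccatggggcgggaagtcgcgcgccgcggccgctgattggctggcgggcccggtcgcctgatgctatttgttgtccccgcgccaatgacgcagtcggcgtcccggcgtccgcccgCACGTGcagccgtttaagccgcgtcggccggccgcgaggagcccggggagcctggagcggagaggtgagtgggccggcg
Piwil1: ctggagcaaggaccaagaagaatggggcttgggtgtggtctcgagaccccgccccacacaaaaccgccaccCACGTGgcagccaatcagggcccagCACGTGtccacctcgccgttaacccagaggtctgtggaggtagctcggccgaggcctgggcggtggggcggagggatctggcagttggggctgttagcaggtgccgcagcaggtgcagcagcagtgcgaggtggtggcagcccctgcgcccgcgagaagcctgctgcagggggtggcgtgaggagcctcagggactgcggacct
Tdrd1: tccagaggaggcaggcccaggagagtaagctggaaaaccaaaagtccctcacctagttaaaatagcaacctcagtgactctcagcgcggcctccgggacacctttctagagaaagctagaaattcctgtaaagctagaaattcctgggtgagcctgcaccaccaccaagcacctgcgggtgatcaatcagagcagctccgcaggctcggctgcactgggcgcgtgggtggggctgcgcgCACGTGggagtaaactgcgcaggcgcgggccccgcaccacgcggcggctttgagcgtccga
The E-box began 29 bases before the start of Ddx4 and 11 bases before the first annotated start of Tdrd1, and Piwil1 held it 179 and 154 bases before its start. For Mael and Tdrd9, 30 bases around each E-box are shown, from chr1:166238950-166238979 on the minus strand, and from chr12:111971382-111971411 and chr12:111971452-111971481 on the plus strand.
Mael: taccaggcctacCACGTGacaatccccgcc
Tdrd9, distal: ggtctccataaaCACGTGcctgtccaggtc
Tdrd9, proximal: gcacgaggctccCACGTGcatgcagggcct
In Mov10l1 the E-box began 246 bases before the start. The other motifs searched on both strands were GGGCGG, the core of the GC box, in 6 of the 9 genes, and TATAAA, the letters of the TATA box, in 2 of 9. Both TATAAA matches were in the reverse complement. They lay 249 bases before the start of Piwil4 and 37 bases after another annotated start of Tdrd1, outside the window shown. GGGCGG stood in 38.2% of genes with an entry and in 71.6% of those with a CG-rich window, a property that all 9 matched genes share, and TATAAA in 15.7% and 6.13%. CAACTG, a MYB family site, was in 1 of 9, against 15.4% of genes with an entry and 10.01% of those with a CG-rich window. TAATTG, a homeodomain site, was in 0 of 9, against 9.22% and 4.33%. These matches describe letters in a window and are neither binding sites nor causes of what follows.

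Of the 10 genes, 9 reached 1 FPKM in at least 1 library and entered the fit over all 12980 genes that did so. Piwil2 was below 1 FPKM in every WT library and passed only through the mutants, and Mov10l1 did likewise. The p-values of both against WT thus describe genes that entered because they were high in a mutant. Changes were tested with limma on log2(FPKM + 1), with p-values adjusted over all genes tested by the Benjamini-Hochberg method and a call at an adjusted p under 0.05. Fold changes on that scale understate the change of low genes. Both mutants are set against the same WT libraries, so their changes from WT are not independent.

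**Figure D1:**
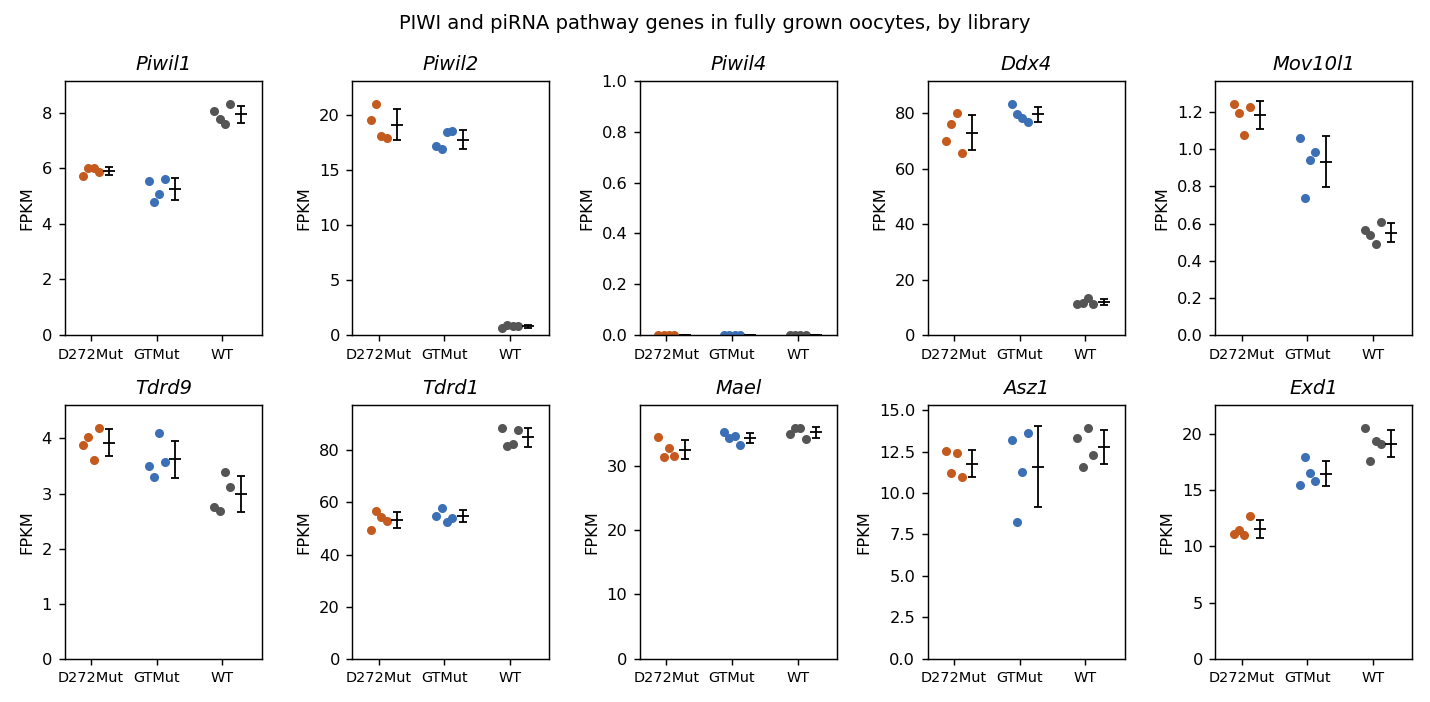
FPKM of the 10 genes by library on linear axes, 1 point per library with the mean and SD of each group beside the points, for D272Mut, GTMut and WT. Piwil2 and Ddx4 were far higher in both mutants than in WT, Piwil1 and Tdrd1 were lower in both, and Piwil4 was listed at 0 throughout.

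The PIWI genes moved in opposite directions. Piwil2 encodes MILI, the PIWI protein that takes up primary piRNAs in fetal and postnatal germ cells. Its locus is chr14:70372478-70429094 (mm10, minus strand, 23 exons). It was measured at 19.5, 20.96, 18.1 and 17.8 FPKM in D272Mut, at 17.1, 16.8, 18.4 and 18.5 FPKM in GTMut and at 0.619, 0.911, 0.8294 and 0.832 FPKM in WT. Every mutant library lay far above every WT library, and the mutants overlapped each other. The mean was 19.1 ± 1.44 FPKM in D272Mut, 17.7 ± 0.863 in GTMut and 0.798 ± 0.125 in WT (SD, n = 4 each), or 23.9-fold and 22.2-fold the WT mean in D272Mut and GTMut. Piwil2 rose by 3.48 ± 0.07 on the log2(FPKM + 1) scale in D272Mut (SE, limma adjusted p = 3.14e-14) and by 3.38 ± 0.07 in GTMut (limma adjusted p = 3.52e-14). In D272Mut 1.995% and in GTMut 2.82% of the tested genes had a larger log2 fold change. With a pseudocount of 0.1 in place of 1, the rise was 4.43 in D272Mut and 4.32 in GTMut. Since each library pools oocytes, more oocytes with the transcript and more transcript per oocyte cannot be told apart, here and below. D272Mut and GTMut did not differ beyond their spread for Piwil2, with a difference of 0.10 (95% interval -0.06 to 0.26, limma adjusted p = 0.302).

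Piwil1 encodes MIWI, the PIWI protein of meiotic and postmeiotic male germ cells, and lies at chr5:128736244-128755474 (plus strand, 22 exons). Its levels were 5.73, 6.00, 6.00 and 5.88 FPKM in D272Mut, 5.53, 4.78, 5.06 and 5.62 FPKM in GTMut and 8.04, 7.78, 7.60 and 8.30 FPKM in WT. All mutant libraries lay below all WT libraries, and all GTMut libraries below all D272Mut libraries. Piwil1 fell by 0.37 ± 0.06 on the log2 scale in D272Mut (limma adjusted p = 0.000138) and by 0.52 ± 0.06 in GTMut (limma adjusted p = 5.46e-06). The difference of D272Mut from GTMut, 0.15 with a 95% interval of 0.01 to 0.29, was not called (limma adjusted p = 0.0928). Piwil4 encodes MIWI2, the nuclear PIWI protein of fetal male germ cells that directs DNA methylation of transposons. It was listed at 0 in all 12 libraries, with its locus at chr9:14702356-14740733 (minus strand, 20 exons).

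Piwil2 and Piwil1 stood in the opposite order in the mutants and in WT. The ratio of Piwil2 to Piwil1 FPKM was 3.41, 3.50, 3.01 and 3.04 in D272Mut, 3.09, 3.52, 3.64 and 3.29 in GTMut and 0.0769, 0.117, 0.109 and 0.1002 in WT. Piwil2 was thus the higher of the pair in every mutant library and the lower in every WT library. The groups had to separate in this ratio, since Piwil2 was higher and Piwil1 lower in every mutant library than in every WT library. The permutation p-values against WT that follow thus add no support beyond the levels of each gene. By geometric means over libraries, the ratio was 32.4-fold higher in D272Mut than in WT and 33.9-fold higher in GTMut than in WT (exact two-sided permutation p = 0.0286 for each, the smallest that 4 against 4 libraries allow), and D272Mut against GTMut gave an exact permutation p of 0.429. The summed FPKM of the PIWI genes was 25.004 ± 1.46 in D272Mut, 22.97 ± 1.08 in GTMut and 8.73 ± 0.294 in WT (SD, n = 4 each). A ratio within a library is unchanged where all genes of that library are scaled alike, but quantile normalization can change it.

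**Figure D2:**
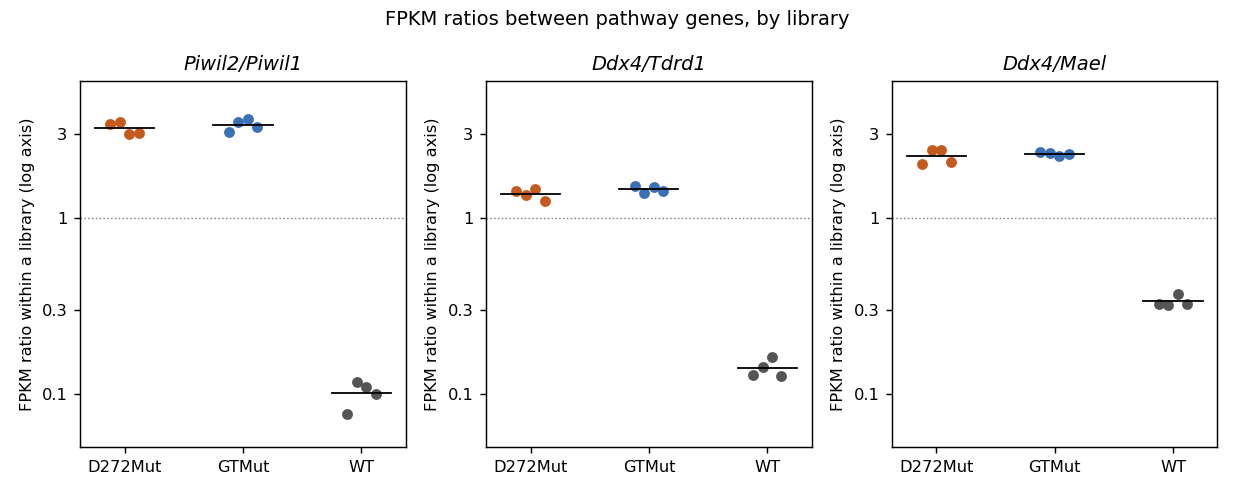
Ratio of FPKM values within each library on a log axis, with 1 point per library, a bar at the group mean and a dotted line at a ratio of 1, for D272Mut, GTMut and WT. Piwil2 to Piwil1, Ddx4 to Tdrd1 and Ddx4 to Mael all lay above 1 in the 8 mutant libraries and below 1 in the 4 WT libraries.

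Among the RNA helicases, Ddx4 showed the largest change. Ddx4, the mouse homologue of Drosophila vasa, is a DEAD-box helicase of nuage and a common germ cell marker, at chr13:112598331-112652310 (minus strand, 21 exons). It was measured at 70.1, 76.1, 79.9 and 65.8 FPKM in D272Mut, at 83.3, 79.9, 78.3 and 76.8 FPKM in GTMut and at 11.4, 11.5, 13.4 and 11.1 FPKM in WT. Every mutant library was at several times the level of every WT library, and the mutants overlapped each other. Ddx4 rose by 2.53 ± 0.07 on the log2 scale in D272Mut (limma adjusted p = 2.76e-13) and by 2.65 ± 0.07 in GTMut (limma adjusted p = 1.35e-13), with means 6.16-fold and 6.72-fold the WT mean. D272Mut differed from GTMut by -0.13 (95% interval -0.27 to 0.02, limma adjusted p = 0.147). In D272Mut 5.25% and in GTMut 5.42% of tested genes had a larger log2 fold change than Ddx4.

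Mov10l1, the helicase that binds piRNA precursors at the start of processing, stayed at low levels. It lies at chr15:88982992-89055152 (plus strand, 27 exons), with 1.24, 1.197, 1.07 and 1.23 FPKM in D272Mut, 1.06, 0.740, 0.941 and 0.987 FPKM in GTMut and 0.568, 0.536, 0.492 and 0.610 FPKM in WT. The 3 groups did not overlap, with D272Mut highest and WT lowest. Mov10l1 rose by 0.49 ± 0.09 on the log2 scale in D272Mut (limma adjusted p = 0.000278) and by 0.31 ± 0.09 in GTMut (limma adjusted p = 0.00742), and the means were 2.15-fold and 1.69-fold that of WT. The call in GTMut was lost under quantile normalization (0.04, limma adjusted p = 0.707). D272Mut and GTMut differed by 0.18 (95% interval -0.02 to 0.38), which was not called in the fit over all genes (limma adjusted p = 0.145).

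Tdrd9, a helicase with a Tudor domain that acts in secondary piRNA production, lies at chr12:111971557-112068854 (plus strand, 36 exons). Its levels were 3.87, 4.03, 3.61 and 4.19 FPKM in D272Mut, 3.51, 3.31, 4.10 and 3.58 FPKM in GTMut and 2.76, 2.68, 3.38 and 3.12 FPKM in WT. D272Mut lay above WT in all libraries, whereas GTMut overlapped both. Tdrd9 rose by 0.31 ± 0.09 on the log2 scale in D272Mut (limma adjusted p = 0.00530) and by 0.21 ± 0.09 in GTMut (limma adjusted p = 0.0360), and quantile normalization turned both directions, to -0.063 and -0.16. The call in GTMut was also lost with no filter on low values (limma adjusted p = 0.0553) and with only the 2 genotypes compared (limma adjusted p = 0.0526). It was lost as well, at limma adjusted p = 0.108, 0.0585, 0.0877 or 0.0982, without GTMut replicate 3, GTMut replicate 4, WT replicate 1 or WT replicate 2.

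Tdrd1, a scaffold of several Tudor domains that binds MILI in nuage, had the highest level of the 10 genes in WT. It lies at chr19:56826207-56870012 (plus strand, 25 exons) and was measured at 49.4, 56.6, 54.3 and 52.7 FPKM in D272Mut, at 54.8, 57.8, 52.5 and 54.2 FPKM in GTMut and at 88.6, 81.6, 82.3 and 87.9 FPKM in WT. All mutant libraries lay below all WT libraries, with the mutants overlapping. Tdrd1 fell by 0.67 ± 0.05 on the log2 scale in D272Mut (limma adjusted p = 1.83e-08) and by 0.62 ± 0.05 in GTMut (limma adjusted p = 3.15e-08), to 0.626 and 0.644 of the WT mean. Between the mutants the difference was -0.04 (95% interval -0.15 to 0.06, limma adjusted p = 0.529). Piwil2 and Tdrd1, whose proteins bind each other, thus changed in opposite directions. The ratio of Piwil2 to Tdrd1 FPKM was 0.359 ± 0.0291 in D272Mut, 0.324 ± 0.0273 in GTMut and 0.00942 ± 0.00177 in WT (SD, n = 4 each).

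The ratio of Ddx4 to Tdrd1, both nuage proteins, was 1.37 ± 0.0965 in D272Mut, 1.45 ± 0.0637 in GTMut and 0.140 ± 0.0166 in WT (SD, n = 4 each). By geometric means it was 9.85-fold higher in D272Mut than in WT and 10.5-fold higher in GTMut than in WT (exact two-sided permutation p = 0.0286 for each). That separation was fixed by the levels, with Ddx4 higher and Tdrd1 lower in every mutant library than in every WT library. Ddx4 against Mael, whose group means spanned 32.5 to 35.2 FPKM, gave 2.25 ± 0.218 in D272Mut, 2.32 ± 0.0429 in GTMut and 0.336 ± 0.0239 in WT, or 6.68-fold and 6.90-fold the WT ratio by geometric means (exact two-sided permutation p = 0.0286 for each). The mutants did not separate in these ratios, with exact permutation p of 0.229 and 0.486. In all, 4 such ratios were compared over 3 pairs of groups, without adjustment.

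The cofactors were lower or little changed. Exd1, whose protein joins TDRD12 in a complex that helps to load MIWI2, lies at chr2:119519402-119547627 (minus strand, 13 exons). It stood at 11.1, 11.5, 11 and 12.7 FPKM in D272Mut, at 15.5, 17.97, 16.6 and 15.8 FPKM in GTMut and at 20.6, 17.6, 19.4 and 19.1 FPKM in WT. D272Mut was below both other groups in every library, while GTMut overlapped WT. Exd1 fell by 0.68 ± 0.07 on the log2 scale in D272Mut against WT (limma adjusted p = 3.58e-07) and by 0.21 ± 0.07 in GTMut against WT (limma adjusted p = 0.0103). The GTMut call was lost under median-ratio scaling (-0.11, limma adjusted p = 0.150). D272Mut lay 0.48 ± 0.07 below GTMut on the log2 scale, at 0.702 of its mean (limma adjusted p = 7.15e-05).

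Mael, a nuage protein with an HMG box, lies at chr1:166201383-166238744 (minus strand, 12 exons). It had 34.5, 31.3, 32.7 and 31.5 FPKM in D272Mut, 35.2, 34.3, 34.6 and 33.3 FPKM in GTMut and 34.97, 35.8, 35.9 and 34.1 FPKM in WT. The 3 groups overlapped. Mael fell by 0.11 ± 0.04 on the log2 scale in D272Mut (limma adjusted p = 0.0241), a call lost without D272Mut replicate 2, D272Mut replicate 4, WT replicate 2 or WT replicate 3 (limma adjusted p = 0.0635, 0.0645, 0.0569 and 0.0591), and median-ratio scaling brought the difference to 0.00035. In GTMut its difference from WT was -0.03 (95% interval -0.12 to 0.05, limma adjusted p = 0.462), or 0.069 under median-ratio scaling, while quantile normalization gave a called fall, at -0.19 (limma adjusted p = 0.00119).

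Asz1, or GASZ, is an ankyrin repeat protein that anchors nuage at mitochondria, at chr6:18050962-18109061 (minus strand, 13 exons). It had 12.6, 11.2, 12.4 and 10.95 FPKM in D272Mut, 13.2, 8.27, 11.2 and 13.6 FPKM in GTMut and 13.3, 11.6, 13.9 and 12.3 FPKM in WT. The groups overlapped, with the widest spread in GTMut, whose replicate 2 was the lowest of all libraries. Its difference from WT was -0.11 in D272Mut (95% interval -0.37 to 0.15, limma adjusted p = 0.431) and -0.15 in GTMut (95% interval -0.41 to 0.11, limma adjusted p = 0.270). Without GTMut replicate 2 the GTMut value was -0.011. Under quantile normalization Asz1 was called lower in both, at -0.37 in D272Mut and -0.42 in GTMut (limma adjusted p = 0.0141 and 0.00651).

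**Figure D3:**
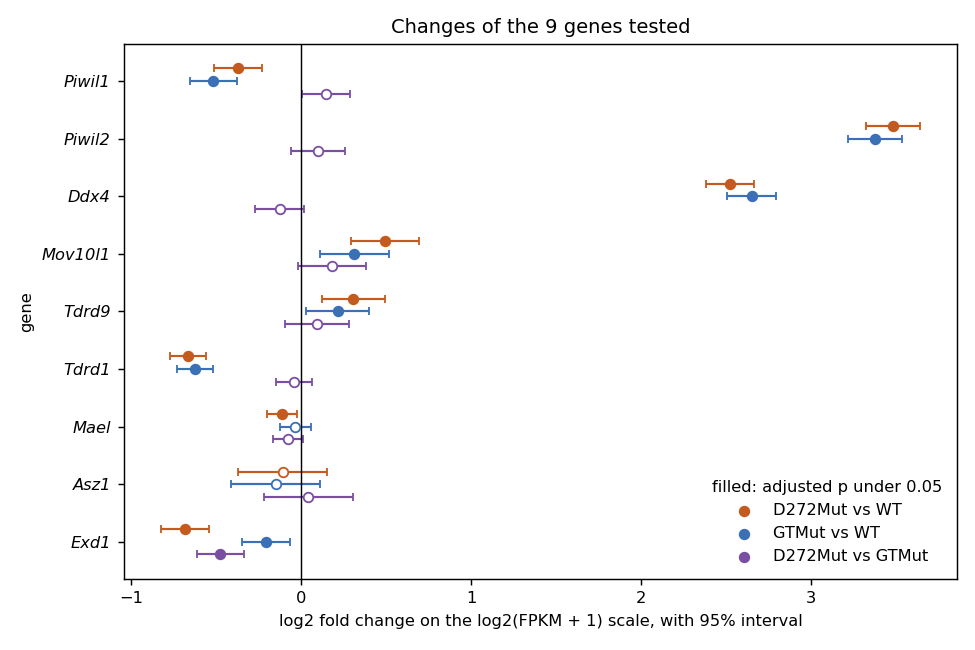
Log2 fold changes of the 9 tested genes on the log2(FPKM + 1) scale for D272Mut against WT, GTMut against WT and D272Mut against GTMut, with bars for the 95% interval of the limma fit and filled points for calls at an adjusted p under 0.05. Piwil2 and Ddx4 lay above 2 in both comparisons with WT, and Exd1 is the gene whose interval lies farthest from 0 between the mutants.

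Counted together, 4 of the 9 tested genes rose and 4 fell in D272Mut against WT, with Asz1 not called. Of all 12980 tested genes, 36.3% rose and 39.5% fell in that comparison, and 75.7% changed in either direction. In GTMut against WT, 4 of the 9 rose and 3 fell, with Mael and Asz1 not called. Among all tested genes 38.3% rose, 39.2% fell and 77.5% changed in that comparison. Piwil2 and Mov10l1, among the risers in both mutants, passed the filter only through the mutants. Under quantile normalization 2 of the 9 rose and 5 fell in GTMut. The libraries did not overlap in 7 of the 9 genes for D272Mut against WT and in 5 of the 9 for GTMut against WT, beside 69.1% and 72.9% of all tested genes. These shares lie near the background of a transcriptome in which most tested genes changed. The median log2 fold change of the 9 genes was -0.11 in D272Mut and -0.03 in GTMut, against -0.05 and -0.02 over all tested genes. In D272Mut against GTMut 1 of the 9, Exd1, fell and 0 rose in limma, beside 20.2% falling, 19.3% rising and 39.6% changing among all tested genes. At an unadjusted p under 0.05 Piwil1 was also higher, and without the intensity trend both Piwil1 and Mov10l1 were called higher (limma adjusted p = 0.0486 and 0.0283). The libraries of the mutants did not overlap for 3 of the 9 genes, Piwil1, Mov10l1 and Exd1, beside 37.4% of all tested genes.

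**Figure D4:**
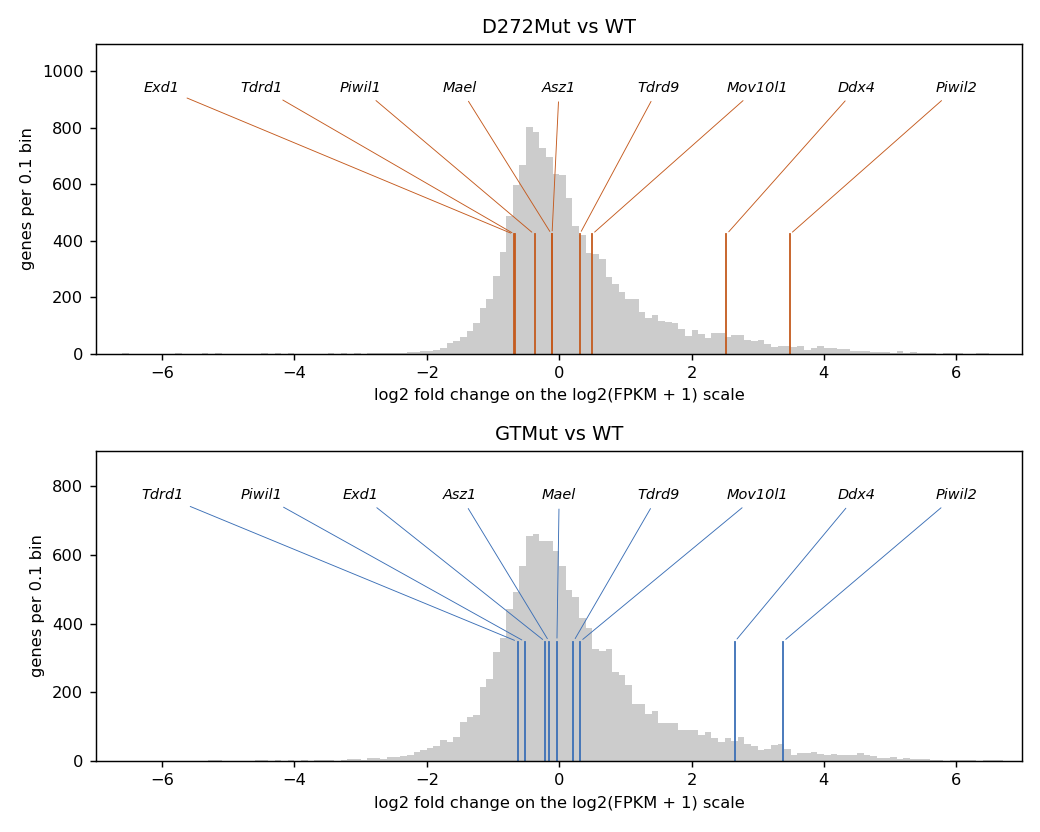
Histograms of the log2 fold changes of all 12980 tested genes on the log2(FPKM + 1) scale, for D272Mut against WT above and GTMut against WT below, with lines at the 9 tested pathway genes. Piwil2 and Ddx4 lie in the upper tail of both, and the other 7 genes lie between -0.68 and 0.49.

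The changes reordered the levels of the genes. In D272Mut and in GTMut Ddx4 stood highest, followed by Tdrd1, Mael and Piwil2. In WT Tdrd1 stood highest, followed by Mael, Exd1, Asz1 and Ddx4, with Piwil2 below Tdrd9 and only Mov10l1 and Piwil4 lower. Neighbours whose libraries overlapped were Asz1 and Exd1 in D272Mut, Piwil2 and Exd1 in GTMut, and Asz1 and Ddx4 in WT, and the libraries of all other neighbours in these orders were apart. The summed level of the 10 genes was 212 ± 8.17 FPKM in D272Mut, 224 ± 3.39 in GTMut and 176 ± 4.55 in WT (SD, n = 4 each). Ddx4 gave 34.3% of that sum in D272Mut, 35.5% in GTMut and 6.72% in WT. Tdrd1 gave 25.1% in D272Mut, 24.4% in GTMut and 48.3% in WT, and Piwil2 gave 9.005%, 7.904% and 0.454% in the same order.

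Among the genes with a promoter entry, which leave out Piwil2, those with the E-box went in both directions. Of those that hold it, Ddx4, Mov10l1 and Tdrd9 rose in both mutants, and Piwil1 and Tdrd1 fell in both. Mael, which also holds it, fell in D272Mut alone by the threshold. Exd1 and Asz1 lacked it in their windows, as did Piwil4. Whether the E-box bears on these directions was not tested. The calls of Tdrd9, of Mov10l1 in GTMut and of Mael in D272Mut did not hold under every alternative, as given above.

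Genes whose levels followed those of the members most closely were ranked by the root mean square difference in log2(FPKM + 1) over the 12 libraries. Nearest to Piwil2 were Ring1, a Polycomb ubiquitin ligase, at 0.129 and Zfyve27 at 0.139. Ring1 had 19.3 ± 2.53 FPKM in D272Mut, 18.7 ± 1.32 in GTMut and 0.646 ± 0.167 in WT (SD, n = 4 each). Nearest to Ddx4 were the zinc finger gene Plagl2 at 0.110 and Dcbld1 at 0.112, and nearest to Tdrd1 were Pias1 at 0.0935 and Atxn1l at 0.0937. For Piwil1 they were Kazn at 0.115 and Myo1e at 0.116, and for Exd1 Acsl1 at 0.131 and Mtmr9 at 0.135. For Mov10l1 they were Rgs9 at 0.118 and Bahcc1 at 0.141, and for Tdrd9 Tmem62 at 0.107 and Bard1 at 0.122. Mael was matched by Srsf3 at 0.0472 and Psma6 at 0.0807, and Asz1 by Prpf3 at 0.147 and Serpinb12 at 0.166. The measure asks for equal levels as well as a like pattern, and the 12 libraries fall into 3 groups, so the points share their groups.

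The authors' deposited table, which holds the results of cuffdiff, gave the same directions for the largest changes. Its log2 fold change for Piwil2 was 4.65 in D272Mut against WT and 4.52 in GTMut against WT, and for Ddx4 2.69 and 2.79. At q under 0.05 the authors' deposited table called 6 of the 10 genes in D272Mut against WT and 6 in GTMut against WT, 3 higher in each. Among genes with a p below 1 in the authors' deposited table, which 8 of the 10 had, 77.6% were called in D272Mut against WT (38.8% higher) and 79.0% in GTMut against WT (39.8% higher). Asz1, Mael and Piwil4 were not called there against WT, nor was Mov10l1, listed with a q of 1. In the authors' deposited table Exd1 was the 1 gene called between the mutants (q = 0.000249), beside 41.1% of all genes with a p below 1.

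Other genes of piRNA production and the Tudor family also went both ways. Of 23 such genes listed, 21 were in the table and 20 were tested. In D272Mut against WT 7 rose, 8 fell and 5 were not called, with a median log2 fold change of -0.16. In GTMut against WT 7 rose, 10 fell and 3 were not called, with a median of -0.24. Among all tested genes 36.3% rose and 39.5% fell in D272Mut, with a median of -0.05. In GTMut 38.3% of all tested genes rose and 39.2% fell, with a median of -0.02. No theme is read from the counts of this list. Wdr77, the cofactor of the arginine methyltransferase PRMT5 that marks PIWI proteins, rose to 8.80 ± 1.34 FPKM in D272Mut and 27.3 ± 2.98 in GTMut, against 0.143 ± 0.0829 in WT (SD, n = 4 each, limma adjusted p = 5.13e-12 and 5.93e-14). Its locus in the deposited table overlaps that of Atp5f1 on the opposite strand. Without strand, reads from exon bases that 2 genes share cannot be told apart, and overlap of their exons was not examined. Btbd18, which promotes transcription of piRNA precursors in the mouse testis, rose to 3.58 ± 0.585 FPKM in D272Mut and 5.34 ± 0.371 in GTMut, against 0.142 ± 0.0794 in WT (limma adjusted p = 6.33e-10 and 4.97e-11). Wdr77 and Btbd18 passed the filter only through the mutants, in which they are high, so their p-values describe genes that had to differ. Adad2, a germ cell RNA-binding protein, rose to 17.7 ± 1.13 FPKM in D272Mut and 16.6 ± 2.28 in GTMut, against 3.12 ± 0.446 in WT (limma adjusted p = 1.06e-10 and 1.40e-10).

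Gpat2, a mitochondrial partner of MILI, rose to 3.68 ± 0.682 FPKM in D272Mut and 2.30 ± 0.414 in GTMut, against 0.737 ± 0.286 in WT (limma adjusted p = 5.32e-07 and 3.64e-05). Among the genes that fell, Tdrd5, a Tudor protein of nuage, was at 15.2 ± 1.40 FPKM in D272Mut and 14.9 ± 0.812 in GTMut, against 31.2 ± 2.05 in WT (limma adjusted p = 1.27e-08 and 8.59e-09). Gtsf1, which raises the slicing activity of PIWI proteins, fell to 1.84 ± 0.170 FPKM in D272Mut and 1.93 ± 1.07 in GTMut, against 7.01 ± 2.37 in WT (limma adjusted p = 4.06e-05 and 3.40e-05). Rnf17, another Tudor protein, fell to 2.92 ± 0.201 FPKM in D272Mut and 2.55 ± 0.303 in GTMut, against 5.48 ± 0.546 in WT (limma adjusted p = 5.73e-06 and 7.70e-07). Gtsf1l fell in GTMut alone by the threshold, with 0.868 ± 0.658 FPKM in D272Mut, 0.0934 ± 0.108 in GTMut and 1.03 ± 0.678 in WT (limma adjusted p = 0.660 for D272Mut and 0.00818 for GTMut). The mutants differed from each other in 8 of the 20 genes, 4 higher and 4 lower in D272Mut. This lies near the share of all tested genes, of which 39.6% differed, 19.3% higher and 20.2% lower in D272Mut. The number of the 20 genes higher was 2 without GTMut replicate 1 or GTMut replicate 2.

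**Figure D5:**
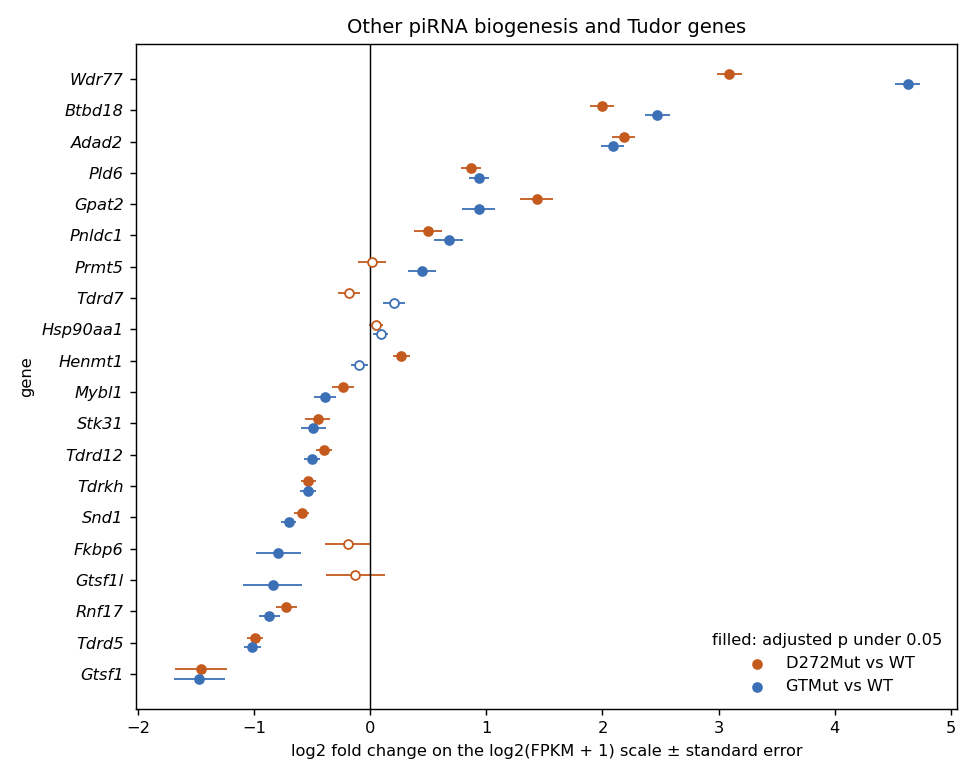
Log2 fold changes, with bars of 1 SE and filled points for calls in limma, of the 20 tested other genes of piRNA production and the Tudor family on the log2(FPKM + 1) scale, for D272Mut against WT and GTMut against WT. Wdr77, Btbd18 and Adad2 lie highest in both comparisons, and Gtsf1 lies lowest in both.

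Of 8 listed genes of silencing in the nucleus, 6 were tested. The list includes DNA and histone methylation factors that are not particular to the piRNA pathway. In D272Mut against WT 1 rose, 4 fell and 1 was not called, and in GTMut against WT 1 rose and 5 fell, with medians of -0.34 and -0.53. Of all tested genes 39.5% fell in D272Mut and 39.2% in GTMut, and 6 genes are too few to read a theme from these counts. Dnmt3l, the DNA methyltransferase cofactor needed for imprints in oocytes, rose to 66.2 ± 6.36 FPKM in D272Mut and 64.9 ± 3.14 in GTMut, against 53.6 ± 1.69 in WT (limma adjusted p = 0.000532 and 0.00100). Uhrf1, which recruits the maintenance DNA methyltransferase, fell to 121 ± 4.38 FPKM in D272Mut and 117 ± 4.24 in GTMut, against 246 ± 6.09 in WT (limma adjusted p = 9.46e-12 and 4.32e-12). Tex15, which acts with MIWI2 in the male germline, fell to 8.54 ± 0.768 FPKM in D272Mut and 8.19 ± 0.711 in GTMut, against 11.6 ± 0.571 in WT (limma adjusted p = 0.000238 and 7.24e-05). Setdb1, a histone methyltransferase that silences transposons, fell to 52.6 ± 1.04 FPKM in D272Mut and 46.02 ± 1.26 in GTMut, against 76.2 ± 1.02 in WT (limma adjusted p = 3.67e-09 and 1.03e-10). Morc1, which acts in transposon silencing in the male germline, was at 1.96 ± 0.485 FPKM in D272Mut and 1.09 ± 0.305 in GTMut, against 2.16 ± 0.239 in WT, and was called in GTMut alone by the threshold (limma adjusted p = 0.490 for D272Mut and 0.00117 for GTMut). The loci of Dnmt3l and Setdb1 in the deposited table each overlap that of an expressed gene on the opposite strand, and overlap of exons was not examined.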

How the data were processed

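RNA-seq of 12 oocyte libraries, 4 per genotype, was used, with groups taken from the sample labels. The authors aligned trimmed reads of 150 bp to mm10 with TopHat2 2.0.13, per the submitters' processing notes. The deposited FPKM values, made with Cufflinks 2.2.1, are scaled to transcript length and sequencing depth. A second set of deposited columns, log2 ratios with their p-values and q-values, came from cuffdiff and served for comparison only. Header names stand 1 column left of their values, so columns were read by position. No source used here states strand-specific counting.

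Genes with a maximum of at least 1 FPKM in any library (12980 of 19162 above 0) were analysed as log2(FPKM + 1). All 12 libraries were fitted together in limma 3.58.1 (R 4.3.3; 9 residual degrees of freedom, intensity trend), with two-sided tests and Benjamini-Hochberg adjustment. Exact permutation tests used 70 arrangements and are unadjusted. Other named genes were the largest called changes of each list, up to 4 rising and 4 falling, and the 2 genes nearest to each member. The members and lists were chosen with earlier results of these data known. Relative depth came from genes under 0.3 FPKM. Alternatives were a pseudocount of 0.1, no filter, a mean of at least 1 FPKM, median-ratio and quantile scaling, no trend, 2 genotypes only, a replicate block and leaving out each replicate.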

Additional observations from a re-analysis of the deposited data

Results flagged for a closer look

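Of the 9 tested PIWI and partner genes, Exd1 was the 1 called between the Marf1 mutants in the fit with the intensity trend. Without that trend Piwil1 and Mov10l1 were called as well (limma adjusted p = 0.0486 and 0.0283), and their libraries likewise did not overlap between the mutants (exact two-sided permutation p = 0.0286 for each). Its log2 fold change in D272Mut against GTMut was -0.48 (limma adjusted p = 7.15e-05), with all 4 D272Mut libraries below all 4 GTMut libraries (exact two-sided permutation p = 0.0286, the smallest possible), where 37.4% of all tested genes also had no overlap between these groups. No library of the pathway genes stood apart from the other 3 of its group by the gap criterion used.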

How the results depend on the processing

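The rise of Piwil2 and Ddx4 and the fall of Piwil1 and Tdrd1 in both mutants, and the fall of Exd1 in D272Mut, kept their direction and call in all 16 alternatives. Over these, Piwil2 ranged from 3.24 to 4.43 in D272Mut and 3.13 to 4.32 in GTMut, and Ddx4 from 2.34 to 2.63 and 2.47 to 2.75. Quantile normalization shifted the median of all genes to -0.25 in D272Mut and -0.23 in GTMut, and the share of higher among called genes to 37.4% and 39.2%, against 47.9% and 49.4%. Under it Tdrd9 turned to -0.063 and -0.16, and in GTMut against WT 2 pathway genes rose and 5 fell. Under median-ratio scaling Mael turned to 0.00035 in D272Mut and 0.069 in GTMut. Without the trend, 2 pathway genes were higher in D272Mut than in GTMut, Piwil1 and Mov10l1. Leaving out a replicate gave 2 to 3 of the other pathway genes higher in D272Mut than in GTMut, against 4, and Asz1, at 0.04 between the mutants, ranged from -0.097 without GTMut replicate 2 to 0.12. The cause of these shifts was not tested. Replicate numbers did not pair the samples (correlations of same-numbered deviations from -0.357 to 0.0940). A replicate block left 9771 genes called in D272Mut against WT, 10007 in GTMut against WT and 4931 in D272Mut against GTMut. It changed no call of the 9 tested PIWI and partner genes, and left 3 of the other pathway genes higher in D272Mut than in GTMut, against 4. Absolute depth is unknown, so no floor can be given for Piwil4.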

Other observations

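Genes that act in meiotic prophase before the arrest at the germinal vesicle stage also went in both directions. Of 27 listed, 15 were tested. In D272Mut against WT 6 rose and 6 fell, and in GTMut against WT 5 rose and 6 fell, beside 36.3% rising and 39.5% falling, and 38.3% rising and 39.2% falling, among all tested genes. Dazl, a germ cell RNA-binding protein, rose to 463 ± 27.3 FPKM in D272Mut and 478 ± 22.8 in GTMut, against 186 ± 4.76 in WT (SD, n = 4 each, limma adjusted p = 5.22e-12 and 2.98e-12). Sycp3, a component of the synaptonemal complex, rose to 17.95 ± 2.34 FPKM in D272Mut and 24.3 ± 0.836 in GTMut, against 5.26 ± 1.44 in WT (limma adjusted p = 1.39e-07 and 9.15e-09). Sycp2, its partner in the axis, fell to 1.119 ± 0.0974 FPKM in D272Mut and 0.870 ± 0.138 in GTMut, against 4.70 ± 0.599 in WT (limma adjusted p = 1.11e-08 and 2.46e-09). Tex12 and Hormad1 also rose in both mutants, to 30.8 and 1.41 FPKM in D272Mut and 23.9 and 3.31 FPKM in GTMut, against 16.5 and 0.102 FPKM in WT. Hormad1 was tested only because of its level in the mutants. Mei4, Smc1b and Msh4 fell in both, to 2.77, 0.687 and 2.93 FPKM in D272Mut and 2.52, 1.18 and 1.59 FPKM in GTMut, against 6.93, 2.65 and 4.22 FPKM in WT.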
